A study of Mus musculus with 8 samples.

Results

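The 9 genes described here encode subunits of the potassium channels that end the cardiac action potential: Kcnd2, Kcnd3, Kcnip2, Kcna5, Kcnq1, Kcne1, Kcnh2, Kcnj2 and Kcnj5. They were chosen by name, and 11 probes of the array carried a RefSeq transcript of one of them, out of 39429 probes and 19987 gene symbols. Gene expression was measured in 8 hearts of male C57BL6 mice, each on its own 1-colour array. The 4 double-transgenic (dtg) hearts had the genotype merCremer/+ IGFloxP/IGFloxP, in which a Cre recombinase that needs tamoxifen acts on floxed alleles of the receptor for insulin-like growth factor 1. The 4 control hearts came from mice that carried Cre without the floxed receptor. The treatment given for all samples was 500 µg of 4OH-tamoxifen on each of 10 days at an age of 8 months, meant to remove exon 3 of the receptor gene in the floxed animals, and hearts were taken 6 weeks later. Tamoxifen and Cre were thus common to the groups. The promoter that drives merCremer and the part of the heart used for RNA are not given in the sources used here, and the labels do not state that the samples are separate animals. The p-values below therefore describe the spread among the 8 samples, some of which may be technical.

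Repolarization in the mouse heart relies on several potassium currents. A fast transient outward current and ultrarapid delayed rectifier currents shape the early phase, the slow and rapid delayed rectifiers known from larger mammals are small in adult mice, and the inward rectifiers hold the resting potential. Most channels join pore-forming subunits with accessory proteins, and a few are more abundant in the atria than in the ventricles.

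Signals are given as log2 processed intensity minus the 75th percentile of the same array, so that 0 is the brightness of a probe at that percentile. A probe was used if it lay well above local background on at least 4 of the 8 arrays. Levels are compared for 1 probe between hearts and never between probes, whose brightness also depends on their sequence. All 6 cardiomyocyte markers examined were well above background on all 8 arrays. Igf1r, the targeted gene, gave -0.30, -0.21, 0.17 and 0.40 in dtg hearts 1 to 4, against 0.18, 0.21, 0.38 and 1.04 in control hearts 1 to 4. The difference of -0.43 (SE 0.24) did not pass (limma, adjusted p = 1), and the position of its single probe was not set against exon 3, so the value does not check the labels. Pearson's r across genes between any pair of arrays lay between 0.973 and 0.995, with genes not being independent replicates. The arrays lay on 2 slides, and each slide held 2 dtg and 2 control hearts. Values from dtg 3, dtg 4 and control 4 correlated at no more than 0.988 with any other array, whereas each of the other 5 had a partner at 0.995, so the differences of 6 of the members are also given in a fit without these 3.

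No member passed the test between dtg and control hearts. Of the 9 genes, 8 were measured above background and none of these 8 passed the adjusted threshold of 0.05 (limma, adjusted p = 1 for each), against 0% of the 21434 features tested. At an unadjusted p under 0.05 the members numbered 0, against 0.746% of all features (132 higher and 28 lower, or 97 higher and 98 lower after quantile normalization). In each of the 8 members the dtg values overlapped the control values, whereas 0.519% of all features had groups that did not overlap. Mean signal was higher in dtg hearts for 2 of the 8 and lower for 6, with a median log2 difference of -0.074, beside a median of 0.015 over all features. In bulk tissue, fewer cells of a type and less RNA per cell cannot be told apart.

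**Figure D1:**
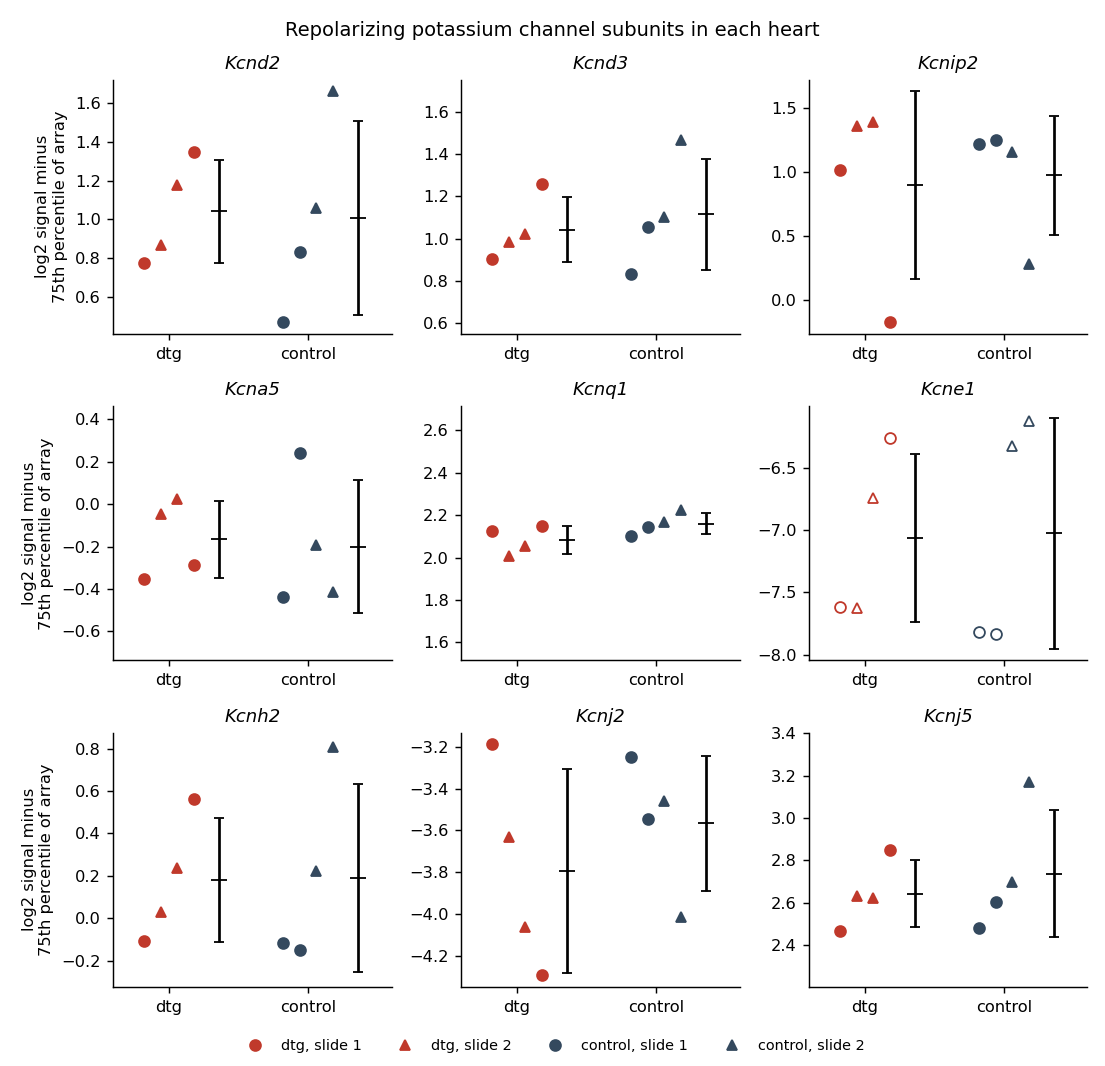
Log2 signal minus the 75th percentile of the array for each of the 9 genes, with the brighter probe shown for Kcna5 and Kcnd3. Points are hearts (circles slide 1, triangles slide 2), bars are the mean and SD of 4 hearts, and open points of Kcne1 were not well above background. The dtg and control points overlap in all 9 panels.

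Kcnd2 and Kcnd3 encode Kv4.2 and Kv4.3, the pore-forming subunits of the fast transient outward current. Kcnd2 had 0.78, 0.87, 1.18 and 1.34 in dtg hearts 1 to 4, against 0.47, 0.84, 1.06 and 1.66 in control hearts 1 to 4. The lowest and the highest heart were both controls. The difference, dtg minus control, was 0.036 (SE 0.26, 95% interval -0.56 to 0.63), with 0.41 within slide 1 and -0.34 within slide 2. Kcnd3 had 0.90, 0.98, 1.02 and 1.26 in dtg hearts, against 0.83, 1.05, 1.10 and 1.47 in control hearts, and its difference was -0.072 (SE 0.16, 95% interval -0.43 to 0.29). Control 4 was again the highest heart and control 1 the lowest. A second Kcnd3 probe, which matches another transcript of the gene, was well above background on 2 dtg arrays and 1 control array and was not tested.

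Kcnip2 encodes KChIP2, a calcium-binding protein that joins Kv4 channels and raises their number at the cell surface. It had 1.02, 1.36, 1.39 and -0.17 in dtg hearts 1 to 4, against 1.22, 1.25, 1.16 and 0.28 in control hearts 1 to 4. The other 6 hearts lay between 1.02 and 1.39, and dtg 4 and control 4 lay below them. The brightest heart was 2.95 times as bright as the dimmest, the widest range among the members tested. Group means were 0.90 ± 0.73 (SD, n = 4) in dtg hearts and 0.98 ± 0.47 (SD, n = 4) in control hearts, a difference of -0.079 (SE 0.38, 95% interval -0.96 to 0.81). That interval includes changes of nearly 1 log2 unit in either direction. The difference was -0.81 within slide 1, which holds dtg 4, and 0.66 within slide 2, which holds control 4. Without control 4 and dtg 4, a choice made after seeing the data, it was 0.046. In the fit without dtg 3, dtg 4 and control 4, with slide as a term, it was -0.038.

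In dtg 4 and control 4, Kcnd2, Kcnd3, Kcnh2 and Kcnj5 lay above all other hearts, while Kcnj2 was lowest in dtg 4 and Kcna5 was second lowest in control 4. The low Kcnip2 signal of these hearts was found under all 5 scalings of the data, while the high signal was found under 4 of the 5 for Kcnh2 and under 3 of the 5 for each of Kcnd2, Kcnd3 and Kcnj5. Under normexp as planned, Kcnd3 and Kcnj5 turned round and lay below all other hearts in dtg 4 and control 4, and after removal of dark spots they again lay above. The same hearts had the lowest overall brightness, with a 75th percentile of 754.6 intensity units in dtg 4 and 737.6 in control 4, against 858.4 to 1027 in the others. They also held the highest mean signal of the atrial markers Myl7, Myl4 and Sln, at 6.07 in dtg 4 and 6.58 in control 4. The part of overall brightness and of atrial signal in the Kcnip2 values was not tested.

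**Figure D2:**
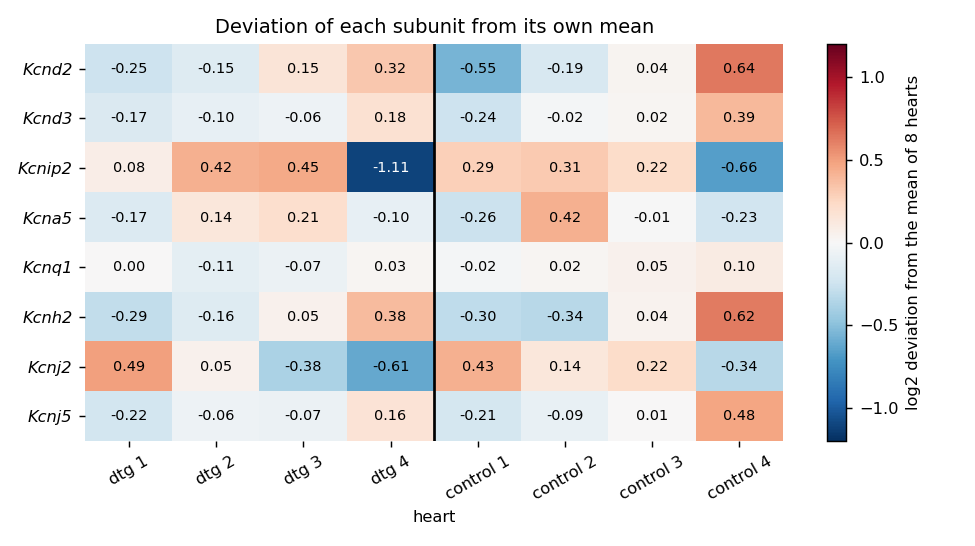
Deviation of each of the 8 members measured from its own mean over the 8 hearts, on the log2 scale, with dtg hearts left of the line and control hearts right of it. Kcnip2 is lowest in dtg 4 (-1.11) and control 4 (-0.66), where Kcnd2, Kcnh2 and Kcnj5 are highest, and Kcnq1 lies between -0.11 and 0.10 of its mean in all 8 hearts.

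The promoters of Kcnip2 and Kcnd2 are shown because the accessory subunit and its channel gene ran in opposite directions in those hearts, and those of Kcna5 and Kcnj5 because they are the members linked to the atria. The sequences cover 250 bases before to 50 after a start and come from RefSeq (GRCm38.p6), with windows for 7 of the 9 members, all except Kcnq1 and Kcne1. The start is the outermost one of the gene for Kcnd2 and Kcna5 and another one for Kcnip2 and Kcnj5, and which start these hearts used was not measured. Capitals mark matches on either strand to any of 4 motifs, which are named with their shares after the sequences.
Kcnip2 (chr19:45816014-45816313, minus strand): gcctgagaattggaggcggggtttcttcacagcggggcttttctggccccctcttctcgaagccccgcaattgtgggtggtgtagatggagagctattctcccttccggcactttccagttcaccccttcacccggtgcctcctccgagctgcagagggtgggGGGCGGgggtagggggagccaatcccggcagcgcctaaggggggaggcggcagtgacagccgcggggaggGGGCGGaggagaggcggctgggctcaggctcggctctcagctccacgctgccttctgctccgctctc
Kcnd2 (chr6:21215096-21215395, plus strand): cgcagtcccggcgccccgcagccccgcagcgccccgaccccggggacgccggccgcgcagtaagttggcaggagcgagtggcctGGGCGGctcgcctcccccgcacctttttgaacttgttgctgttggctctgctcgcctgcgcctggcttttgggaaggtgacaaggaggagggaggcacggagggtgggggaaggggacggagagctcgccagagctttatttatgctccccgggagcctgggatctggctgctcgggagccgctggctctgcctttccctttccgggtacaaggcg
Kcna5 (chr6:126535506-126535805, minus strand): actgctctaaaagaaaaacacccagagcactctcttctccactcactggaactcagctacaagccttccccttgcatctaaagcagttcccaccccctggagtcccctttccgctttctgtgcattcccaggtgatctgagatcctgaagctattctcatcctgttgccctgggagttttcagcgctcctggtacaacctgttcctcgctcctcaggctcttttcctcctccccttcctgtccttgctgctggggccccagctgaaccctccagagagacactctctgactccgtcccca
Kcnj5 (chr9:32344295-32344594, minus strand): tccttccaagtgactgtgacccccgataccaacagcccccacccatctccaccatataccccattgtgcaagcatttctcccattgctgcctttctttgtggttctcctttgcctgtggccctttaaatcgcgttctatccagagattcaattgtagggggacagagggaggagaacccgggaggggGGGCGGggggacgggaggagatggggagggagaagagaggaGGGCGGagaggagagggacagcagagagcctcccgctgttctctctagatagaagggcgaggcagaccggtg

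All capitals in these 4 sequences are GC boxes, with 2 in Kcnip2, 1 in Kcnd2, 0 in Kcna5 and 2 in Kcnj5. The GC box was searched as GGGCGG, and 5 of the 7 members with a window held it, against 35.7% of the 32851 windows in the table. The E-box, a motif of clock factors among others, was searched as CACGTG, and 1 of the 7 held it, that of Kcnj2, against 7.15% of all windows. The motif of the FoxO factors, which insulin-like signalling restrains, was searched as GTAAACA and was in 0 of the 7, against 3.65% of all windows. The TATA box was searched as TATAAA and was in 0 of the 7, against 13.6% of all windows. No matches of different motifs overlapped in the members. GC content was 67% for Kcnip2, 68.7% for Kcnd2, 55% for Kcna5 and 58.3% for Kcnj5, with a median of 52.7% over all windows. These matches describe the letters of the windows and say nothing of binding.

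Kcna5 encodes Kv1.5, which carries an ultrarapid delayed rectifier current and is known as an atrial channel in the human heart, while the mouse also uses it in ventricles. Its brighter probe had -0.35, -0.044, 0.023 and -0.29 in dtg hearts 1 to 4, against -0.44, 0.24, -0.19 and -0.41 in control hearts 1 to 4. The difference was 0.036 (SE 0.18, 95% interval -0.37 to 0.45). The dimmer probe gave 0.067 (SE 0.26, limma over every probe used, adjusted p = 1), with -1.03, -1.51, -1.41 and -1.16 in dtg hearts and -0.96, -0.83, -1.84 and -1.76 in control hearts. Neither probe passed, and they ordered the hearts differently.

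On the dimmer Kcna5 probe all 4 hearts of slide 2 lay below all 4 hearts of slide 1. The difference, slide 2 minus slide 1 with genotype as a term, was -0.63 (SE 0.14, limma, adjusted p = 0.0307), a comparison added after values were seen. The brighter probe differed by 0.053 (SE 0.18, adjusted p = 0.936). Of the 9 member probes tested this was the 1 that passed, against 8.75% of 26118 probes, and the 1 whose slides did not overlap, against 16.3%. The count is close to that of the array as a whole.

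Kcnq1 encodes the pore of the slow delayed rectifier and Kcne1 its accessory subunit, known as KvLQT1 and minK. Kcnq1 was the steadiest member. It had 2.12, 2.01, 2.05 and 2.15 in dtg hearts 1 to 4, against 2.10, 2.15, 2.17 and 2.22 in control hearts 1 to 4. The brightest heart was 1.16 times as bright as the dimmest, and the spread within groups (SD 0.058) was smaller than that of all but 0.56% of features. The difference was -0.076 (SE 0.09, 95% interval -0.28 to 0.13). Kcne1 was not well above background on any of the 8 arrays, so it has no fold change, and its values ran between -7.62 and -6.26 in dtg hearts and between -7.84 and -6.12 in control hearts.

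Kcnh2 encodes the pore of the rapid delayed rectifier, known as ERG. It had -0.11, 0.030, 0.24 and 0.56 in dtg hearts 1 to 4, against -0.12, -0.15, 0.22 and 0.81 in control hearts 1 to 4. The values of the groups interleaved, and the difference was -0.0093 (SE 0.24, 95% interval -0.57 to 0.55). Within slide 1 it was 0.36, within slide 2 it was -0.38, and without control 4 and dtg 4 it was 0.068. With dtg 3 also left out and slide as a term, it was -0.068.

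Kcnj2 encodes Kir2.1, the main pore of the inward rectifier that sets the resting potential of ventricular cells. Its probe was dim but well above background on all 8 arrays. It had -3.19, -3.63, -4.06 and -4.30 in dtg hearts 1 to 4, against -3.25, -3.54, -3.46 and -4.02 in control hearts 1 to 4. The 2 lowest hearts were dtg and so was the highest. The difference of -0.23 (SE 0.27, 95% interval -0.84 to 0.39), the largest among the 8 members, was within the spread of the hearts. Quantile normalization gave -0.41. Each slide gave a negative value, -0.34 for slide 1 and -0.11 for slide 2, and leaving out control 4 and dtg 4 gave -0.21. With dtg 3 also left out and slide as a term it was 0.045.

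Kcnj5 encodes Kir3.4, which forms the acetylcholine-gated channel of the atria and the sinus node with Kir3.1, the product of Kcnj3. It had 2.47, 2.63, 2.62 and 2.85 in dtg hearts 1 to 4, against 2.48, 2.60, 2.70 and 3.17 in control hearts 1 to 4. Control 4 was the highest and dtg 4 the next. The difference was -0.095 (SE 0.17, 95% interval -0.48 to 0.29), 0.12 within slide 1, -0.31 within slide 2 and -0.021 without control 4 and dtg 4. It was -0.072 with dtg 3 also left out and slide as a term.

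**Figure D3:**
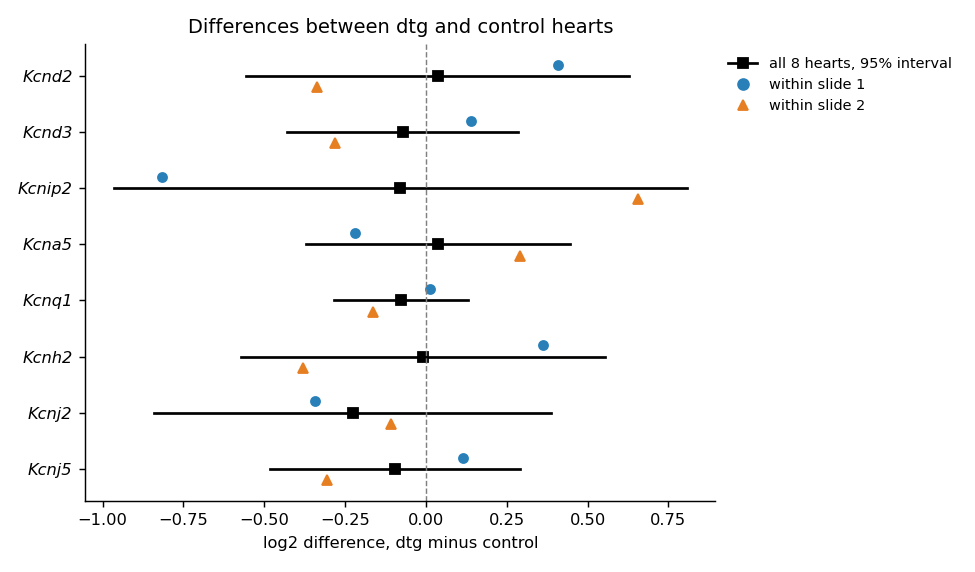
Log2 difference, dtg minus control, for the 8 members measured above background. Squares and lines are the limma estimate and its 95% interval over all 8 hearts, and coloured points are differences within slide 1 (circles) and slide 2 (triangles). Every interval includes 0, and for 7 of the 8 genes, all except Kcnj2, the slides lie on opposite sides of 0.

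The atrial-linked members, Kcna5 and Kcnj5, were set against the other 6 members measured. Their mean signal minus that of the others was 0.80, 1.02, 1.02 and 1.14 in dtg hearts 1 to 4, against 0.81, 1.16, 0.88 and 0.97 in control hearts 1 to 4. The mean was 0.997 ± 0.14 in dtg hearts and 0.95 ± 0.15 in control hearts (SD, n = 4 each), a difference of 0.042 that lay within the spread of the hearts. The size of the value itself reflects probe brightness, so only its change between hearts can be read. Without control 4 and dtg 4 the difference was 0.00039, and with dtg 3 also left out and slide as a term it was -0.041.

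Atrial marker signal varied widely between the hearts, and the atrial-linked members did not follow it together. Averaged over Myl7, Myl4 and Sln, the log2 signal was 4.64, 2.24, 2.77 and 6.07 in dtg hearts 1 to 4, against 4.83, 2.17, 5.93 and 6.58 in control hearts 1 to 4. The hearts fell into 3 between 2.17 and 2.77 and 5 from 4.64 upwards, so no correlation over all 8 was computed. The 3 hearts with the most atrial signal, control 4, dtg 4 and control 3, were also the 3 highest for Kcnj5 under 3 of the 5 scalings. They were likewise the 3 highest for Kcnd3, which has no such atrial link, under 3 of the 5. The same count held for Kcne1, whose probe was not well above background on any array. For Kcnq1 it was 2 of the 5. Kcnj3, the partner of Kcnj5 and itself on the list of atrial markers, had -1.82, -2.28, -2.06 and -1.66 in dtg hearts 1 to 4, against -2.02, -2.11, -1.71 and -1.54 in control hearts 1 to 4, highest in the same 3 hearts.

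The brighter Kcna5 probe ran the other way. Its 3 highest hearts, control 2, dtg 3 and dtg 2, were the 3 with the least atrial signal, under 4 of the 5 scalings, the exception being median scaling. The same 3 hearts were the highest for Kcnip2, which is not among the atrial-linked members, under 3 of the 5 scalings. On the dimmer Kcna5 probe these hearts were the highest within their own slide, at -1.51 in dtg 2 and -1.41 in dtg 3 of slide 2 and -0.83 in control 2 of slide 1. Quantile normalization gave the same, but the other scalings did not. Control 4 lay above dtg 3 under median scaling (1.83 against 1.79). Under normexp with dark spots, control 4 (-0.14) lay above both dtg 2 (-1.53) and dtg 3 (-1.24). On slide 1, dtg 4 (-0.53) then lay above control 2 (-0.74). Under normexp without dark spots, control 4 lay above dtg 2 (-1.521 against -1.526). The part of tissue composition in these values was not tested. All 10 atrial markers had lower means in the dtg group (median log2 difference -0.54), none of them past the threshold, and their mean level ranged from 0.56 to 2.50 in dtg hearts and from 0.59 to 2.89 in control hearts.

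**Figure D4:**
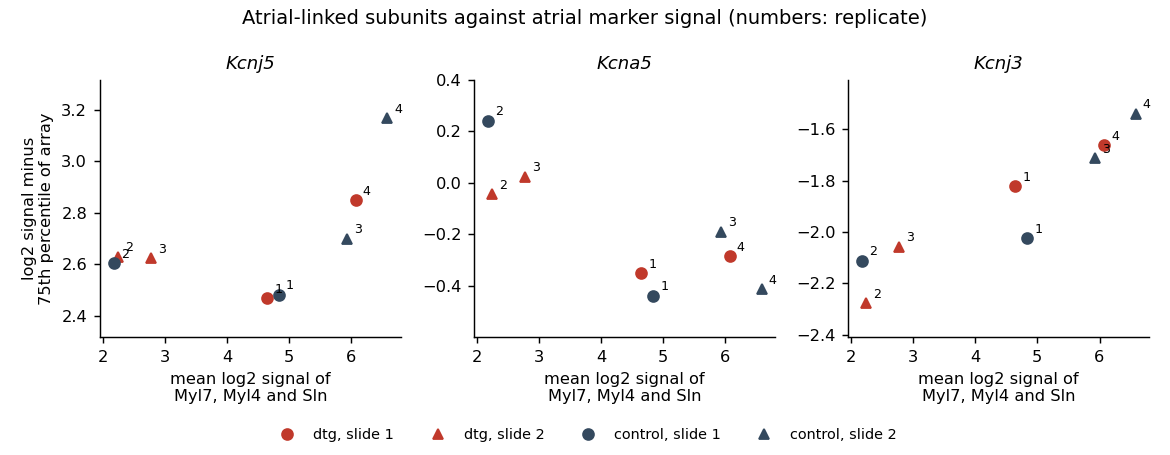
Log2 signal of Kcnj5, Kcna5 (brighter probe) and Kcnj3 against the averaged atrial markers (Myl7, Myl4, Sln; log2 signal) in each heart, with replicate numbers beside the points. Kcna5 is highest in the 3 hearts with the least atrial signal (dtg 2, dtg 3 and control 2), while Kcnj5 and Kcnj3 are highest in control 4.

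The genes whose signal was most like that of a member over the 8 hearts show what each ordering shares with the array as a whole. Among 14289 named genes, Kcnj5 was most like Rpl7, a ribosomal protein gene (r = 0.995, rho = 0.976, and r = 0.961 without control 4 and dtg 4), Hspa4 (r = 0.995) and Ufd1 (r = 0.994). Kcnd2 was most like Cs, citrate synthase (r = 0.995, rho = 1, and r = 0.986 without control 1 and control 4), Sptbn1 (r = 0.995) and Ppib (r = 0.994). Such likeness was common: 912 genes had r above 0.9 with Kcnj5 and 953 with Kcnd2. These values share each array's labelling and scaling and are descriptions.

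Kcnip2 and Kcna5 had fewer close companions. Kcnip2 was most like Etnk1 (r = 0.994, rho = 0.905), Gucy1a2 (r = 0.991) and Ndufa10 (r = 0.987), and 274 genes had r above 0.9. Without dtg 4 and control 4 these values were 0.870, 0.799 and 0.817. Kcna5 was most like the transcription factor Zbtb16 (r = 0.923, rho = 0.881), Timp4, a metalloproteinase inhibitor (r = 0.898), and Pparg (r = 0.889), and 1 gene had r above 0.9. Without control 2 and dtg 3 they were 0.953, 0.912 and 0.852.

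Other genes of cardiac potassium currents also did not pass between the groups. Of 45 listed, 43 were on the array and 34 were measured above background, 15 of them higher and 19 lower in dtg hearts (median log2 difference -0.038) beside 0.015 for all features. None passed the adjusted threshold. Against 0.746% of all features, 1 of the 34 had an unadjusted p under 0.05 (limma). That was Kcnn3, a calcium-activated channel subunit, with -3.80, -3.71, -4.24 and -3.71 in dtg hearts 1 to 4, against -4.73, -4.05, -4.46 and -4.45 in control hearts 1 to 4. Control 2 lay within the dtg range, and the difference was 0.56 (SE 0.18, adjusted p = 1). Kcnk2, a stretch-sensitive leak channel above background on 4 arrays, differed by 0.54 (SE 0.38). The lower genes with the smallest p were Kcnj14, an inward rectifier, at -0.36 (SE 0.16), and Kcna2, a delayed rectifier, at -0.33 (SE 0.20). Kcna2 too was above background on only 4 arrays. Kcnj3 differed by -0.11 (SE 0.18).

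Between the slides, 2 of these 34 genes passed, Dpp6 and Dpp10, against 8.75% of all probes. They encode peptidase-like proteins that join Kv4 channels and speed their gating, and they were chosen after their values were seen. Dpp6 averaged -3.77 on slide 2 and -2.21 on slide 1 (difference -1.56, SE 0.18, limma, adjusted p = 0.00329). Dpp10, above background on 5 of the 8 arrays, averaged -5.44 on slide 2 and -3.89 on slide 1 (difference -1.56, SE 0.23, limma, adjusted p = 0.00756). All hearts of slide 2 lay below all hearts of slide 1 in each. Dpp10 on slide 2 ran from -5.86 to -4.88. The second Kcnd3 probe, too dim to be tested, ran from -6.15 to -4.65. A gene bright on slide 1 alone could pass the filter of 4 arrays. The slide 2 side of the Dpp10 difference may thus be background, and its size and p are not a measured change. The slides did not overlap for 7 of the 34 genes, against 16.3% of all probes. With slide as a term, the group difference, dtg minus control, was -0.29 (SE 0.18) for Dpp6 and -0.23 (SE 0.23) for Dpp10, and neither passed (limma, adjusted p = 1). Within slide 1, Dpp6 was -2.47 and -2.40 in the dtg hearts and -2.07 and -1.90 in the control hearts. Within slide 2 the dtg hearts, at -3.84 and -3.83, lay between the control hearts, at -4.09 and -3.31. The mean of 4 nerve and glia markers ran from -2.80 to -2.56 on slide 2 and from -2.57 to -2.24 on slide 1, and its part in these values was not tested.

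**Figure D5:**
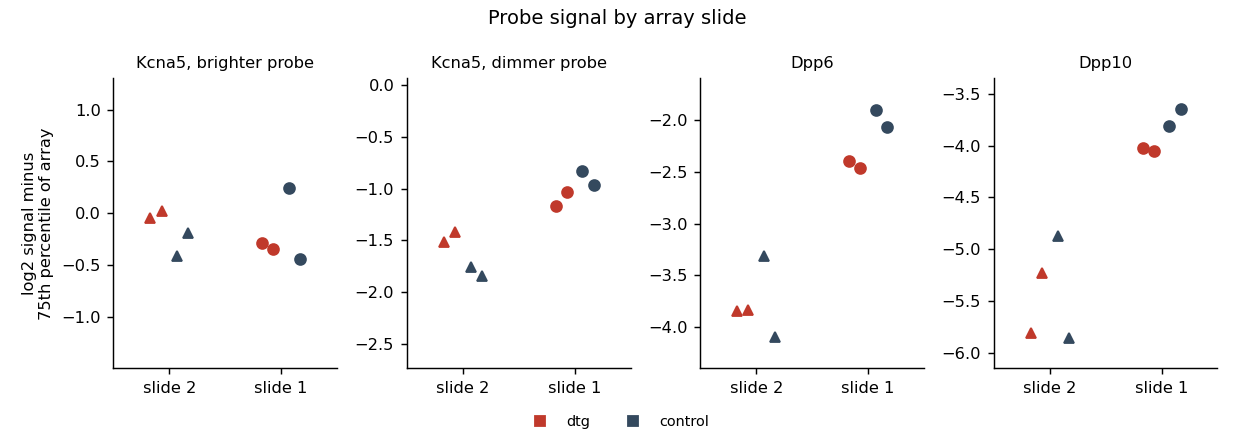
Log2 signal minus the 75th percentile of the array on slide 2 (left) and slide 1 (right) of each panel, with dtg hearts in red and control hearts in dark blue. The dimmer Kcna5 probe, Dpp6 and Dpp10 are lower in every heart of slide 2, while the brighter Kcna5 probe overlaps.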

How the data were processed

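RNA from 4 dtg and 4 control hearts was labelled with Cy3, starting from 100 ng for each heart (per the labels' protocols). Per the file headers, scans were read in Agilent Feature Extraction 10.7.3.1, which the submitters' processing notes also name. In the deposited table of each array, a spot has a processed intensity after local background subtraction. A second deposited table holds log2 values, and these matched quantile-normalized log2 intensity centred per probe (r between 0.99989 and 0.99998 per column, column medians between -0.0322 and 0.0323). Its direction is therefore that of the scanner values, and no source used here names its software.

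After control and outlier spots were removed, replicate spots were averaged per probe and the 75th percentile was subtracted. Of 39429 probes, 26369 matched a symbol through RefSeq accessions (table of GRCm38.p6, names only), and 26118 were well above background on at least 4 arrays. The probe with the highest mean stood for a gene. Differences were tested with limma 3.58.1 in R 4.3.3 over 21434 features with Benjamini-Hochberg adjustment, which was tested on simulated data first. The files hold no mean signal, so normexp used the median signal. The 75th percentile lay between 737.6 and 1027 intensity units, and no spot was saturated. Precision is limited by the number of arrays.

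The replicate numbers in the titles were not used as pairs in the main fit. Deviations from group means correlated at 0.542, -0.545, 0.152 and 0.161 for numbers 1 to 4. Control 1 and dtg 1 were each other's best match. The samples of number 2, and those of number 4, lay on different slides. These values therefore mix pairing with slide and cannot decide whether the numbers pair the samples. The members and lists were chosen with earlier results of these data known. Named genes were all members, Igf1r, Kcnj3, up to 2 other potassium current genes per direction by smallest p, and the 3 genes most like Kcnj5, Kcna5, Kcnip2 and Kcnd2. Dpp6, Dpp10, Kcnk3, Kcnn2 and Kcna4 are named beyond this rule, having been picked with their values in view. The 5 scalings were the 75th percentile, the median, quantile normalization, and normexp with and without dark spots. Alternatives covered slide, replicate number, scaling, background correction, filter, probe choice, variance model and left-out samples.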

Additional observations from a re-analysis of the deposited data

Results flagged for a closer look

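Kcnip2 in control 4, at 0.28, lay far below the other 3 control hearts, which ran from 1.16 to 1.25, a gap larger than Dixon's 95% critical value for 4 samples. In the dtg group, dtg 4 at -0.17 lay below the other 3, which ran from 1.02 to 1.39, and its ratio of 0.761 did not pass that value. The rule was applied to 18 groups of 4 hearts over 9 probes, and chance flags about 1 in 20.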

How the results depend on the processing

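No feature and no member passed an adjusted p of 0.05 under any alternative run, and none did at 0.1, so no call changed. The smallest adjusted p of a member under any of them was 0.846 (Kcnh2). Signs of the members' differences did turn, and the cause was not tested. Within slide 1 the values were 0.14 for Kcnd3, -0.22 for Kcna5, 0.013 for Kcnq1, 0.36 for Kcnh2 and 0.12 for Kcnj5, and within slide 2 they were -0.34 for Kcnd2 and 0.66 for Kcnip2. Normexp on the median signal gave 0.11 for Kcnd3, 0.15 for Kcnq1, 0.071 for Kcnh2 and 0.16 for Kcnj5, and moved the members' median to 0.089, with a fitted background mean of -462 in dtg 4 and -1740 in control 4. With dark spots removed, these were -0.081, -0.080, -0.017 and -0.091, and the median was -0.049. Median scaling gave -0.044 for Kcnd2 and -0.043 for Kcna5, with the median of all features at -0.065. Quantile normalization and the deposited values gave 0.0031 and 0.0033 for Kcnh2, and -0.41 each for Kcnj2. Kcnd2, at 0.036 over all hearts, was 0.41 within slide 1 and 0.23 with normexp. Array weights gave -0.21 for Kcna5 and 0.19 for Kcnh2. Leaving out dtg 3, dtg 4 and control 4, in a fit with slide as a term, Kcnd2 was -0.010, Kcna5 -0.081 and Kcnj2 0.045, while Kcnip2 was -0.038 and Kcnh2 -0.068. Without control 4 and dtg 4, chosen after seeing the data, Kcnip2 was 0.046 and Kcnh2 0.068. Leaving out each heart in turn gave ranges of -0.14 to 0.25 for Kcnd2, -0.17 to 0.045 for Kcnd3, -0.31 to 0.28 for Kcnip2, -0.043 to 0.18 for Kcna5, -0.098 to -0.051 for Kcnq1, -0.14 to 0.20 for Kcnh2, -0.43 to -0.060 for Kcnj2 and -0.18 to 0.048 for Kcnj5. The 160 features at an unadjusted p under 0.05 became 98 to 331 over these, 252 with slide as a block, 276 with the replicate block (0 adjusted calls), 724 and 495 within slides 1 and 2, 13 with normexp, 102 with normexp without dark spots, 413 without a filter, 779 with array weights and 665 in the fit without dtg 3, dtg 4 and control 4. With 4 hearts per group, the median SE of a log2 difference was 0.18, and Kcne1 was too dim to compare.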

Other observations

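Among other potassium channel genes, chosen after their values were seen, Kcnn2, a calcium-activated channel subunit known from atria, had 1.13 in dtg 4 and 1.22 in control 4, against -0.029 to 0.81 in the other 6 hearts. These hearts were above the rest under 3 of the 5 scalings. Kcnk3, a leak channel subunit known as TASK-1, had 3.24 in dtg 4 and 3.65 in control 4, against 3.71 to 4.00 in the other 6 hearts, so that control 4 lay close to the lowest of them. Both were below the rest under 3 of the 5 scalings. Kcna4, which encodes Kv1.4 of the slow transient outward current, had 1.502 in dtg 4 and 1.49 in control 4, within the range of the other 6 hearts (1.36 to 2.02).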
